A study of Rattus norvegicus with 30 samples.

Results

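The genes described here encode receptors of innate immunity and the S100 alarmins, the pair of calcium-binding proteins that myeloid cells release. They were chosen by name, and all 10 (*S100a8*, *S100a9*, *Clec4e*, *Clec7a*, *Tlr2*, *Tlr4*, *Tlr7*, *Cd14*, *Tyrobp* and *Trem2*) stand once each among the 32545 genes of the deposited table. Innate receptors recognise microbial products and molecules that leave damaged cells, and they signal through adaptor proteins to transcription factors that switch on cytokine genes. Toll-like receptors signal through MyD88 and related adaptors, whereas several C-type lectin receptors and the TREM receptors signal through tyrosine motifs (ITAMs), carried by the receptor or by an adaptor such as TYROBP, that recruit the kinase SYK. In the kidney these genes are known mainly from resident macrophages and infiltrating leukocytes, and some Toll-like receptors are also made by tubular cells.

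The study followed kidneys of normal male Sprague-Dawley rats after a change of diet, and asked how salt intake altered gene expression in the cortex (Cx) and the outer medulla (OM). LS rats were fed the 0.4% NaCl diet, HS14 rats had 14 d of the 4.0% NaCl diet, and HS21 rats had 21 d of it. All rats were of the same outbred stock, and each library of a tissue came from a different kidney. The sources used here do not make clear, for each group, the age of the rats that gave these kidneys or whether they had earlier surgery, nor whether the same number in Cx and OM stands for the same rat. There were 5 poly(A) RNA libraries for each tissue and diet, numbered 1 to 5 on LS, 6 to 10 at HS14 and 11 to 15 at HS21, which gives 30 libraries.

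Library totals, the reads assigned to genes, were 13953714 to 17048749 (median 14415170) for Cx LS, 15379007 to 21842843 (median 16288785) for Cx HS14 and 14641135 to 15627211 (median 15333041) for Cx HS21. The OM totals were 12748841 to 14838776 (median 14169399) on LS, 5408126 to 16557589 (median 14160890) at HS14 and 12899490 to 15810724 (median 15258398) at HS21. Levels are given as CPM, the count of a gene over the TMM-scaled size of its library, always in the order of the replicate numbers. Changes are log2 ratios with the SE of edgeR's quasi-likelihood fit. A gene is called raised or lowered when its *P*, adjusted over all genes tested in that comparison, is under 0.05. Both HS groups of a tissue were compared with the same 5 LS libraries, so their results are not independent of each other.

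A pair of OM libraries stood apart from the rest. OM HS14 replicate 10 had the smallest total, and it held 0 reads of both *S100a8* and *S100a9*, where 3 reads would be 0.516 CPM. The paper's supplement also gives it the lowest mapped share, the lowest exon share and the highest intron share of the 30 libraries. OM LS replicate 2 had more cortical RNA than the other OM libraries, since its summed level of 5 cortical segment markers was 4827 CPM against 468, 1359, 1088 and 141 CPM in replicates 1, 3, 4 and 5. It also gave the lowest OM value on LS of *Clec4e*, *Tlr2*, *Tlr4*, *Tlr7*, *Tyrobp* and *Trem2*. Both libraries were kept, and for members it is said where a call depended on them. Calls of other listed genes are given only with both libraries kept. The tissue labels were checked by markers. The cortical list summed to 6646 CPM or more in every Cx library and to 4827 CPM or less in every OM library. The thick ascending limb markers *Umod* and *Slc12a1* summed to 9568 CPM or more in every OM library and to 2743 CPM or less in every Cx library. In Cx HS21, replicate 13 had the highest cortical sum (9357 CPM against 6646 to 7965 CPM) and the lowest value of its group for each of the 10 members.

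The members lie at separate places of the rat genome (Rnor_6.0), except that *S100a8* (ENSRNOG00000011557, chromosome 2, 190073815 to 190074354) and *S100a9* (ENSRNOG00000011483, chromosome 2, 190097554 to 190100276) lie close together on opposite strands. The lectin receptors *Clec4e* (ENSRNOG00000061394, chromosome 4, 156270920 to 156276304) and *Clec7a* (ENSRNOG00000054251, chromosome 4, 163216163 to 163227334) share a chromosome. The Toll-like receptors are *Tlr2* (ENSRNOG00000009822, chromosome 2, 182840727 to 182846061), *Tlr4* (ENSRNOG00000010522, chromosome 5, 82587420 to 82601052) and *Tlr7* (ENSRNOG00000004249, chromosome X, 28486869 to 28512957). The remaining members are *Cd14* (ENSRNOG00000017819, chromosome 18, 29560365 to 29562153), *Tyrobp* (ENSRNOG00000020845, chromosome 1, 88875375 to 88879303) and *Trem2* (ENSRNOG00000013578, chromosome 9, 14611561 to 14618013). Each is annotated as protein coding, and 0 of the 10 overlaps another annotated gene.

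Levels of different genes are compared only in the authors' FPKM, which is corrected for gene length. *Tyrobp* had the highest FPKM in each of the 6 groups, from 20.9 ± 2.52 FPKM (SD, n = 5) in Cx LS to 66.7 ± 21.5 FPKM (SD, n = 5) in Cx HS21. In Cx LS the order below it was *Clec7a*, *Cd14*, *Tlr4*, *Tlr2*, *Tlr7*, *S100a9*, *Trem2*, *S100a8* and *Clec4e*, from 3.31 ± 0.735 FPKM (SD, n = 5) down to 0.142 ± 0.0720 FPKM (SD, n = 5). Only the steps from *Tyrobp* to *Clec7a* and from *Tlr2* to *Tlr7* separated neighbours of that order in every library, and the libraries of all other neighbours overlapped. In OM LS the alarmins were lowest, with *S100a9* at 0.428 ± 0.133 FPKM (SD, n = 5) and *S100a8* at 0.0671 ± 0.0920 FPKM (SD, n = 5). Among neighbours of the OM LS order, *Tyrobp* and *Cd14*, *Tlr4* and *S100a9*, and *S100a9* and *S100a8* did not overlap. At HS14 the alarmins stood next to *Tyrobp* at the top in both tissues. *S100a9* was at 10.5 ± 9.57 FPKM (SD, n = 5) in Cx and 7.21 ± 5.50 FPKM (SD, n = 5) in OM. The spread of the alarmins overlapped the genes ranked below, and in OM *S100a9* overlapped *Tyrobp* too. At HS21 *Clec7a* was next to *Tyrobp* in Cx, at 7.64 ± 1.72 FPKM (SD, n = 5), and *Tlr2* in OM, at 5.31 ± 1.53 FPKM (SD, n = 5). In both tissues every member below *Tyrobp* then overlapped its neighbours in the order.

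In Cx the members were mostly higher on the HS diet, by a few members at HS14 and by all that could be tested at HS21. At HS14, 3 of 8 tested members were raised and 0 lowered (1.14% of all genes tested were raised), with a median log2 ratio of 0.57 over the 8 against 0.00 over all genes. At HS21, 9 of 9 tested members were raised (18.9% of all genes tested), with a median of 1.57 against 0.00. The share of all genes at HS21 depended on the scaling, with 2702 raised and 2936 lowered by TMM and 4401 and 1653 by total counts, while 9 members were raised by both. These counts are no support by themselves, because the low-count filter let some members in only through their HS libraries, so that they had to differ. These were *S100a9* and *Trem2* at HS14, and *S100a9*, *Clec4e* and *Trem2* at HS21. *S100a8* at both times and *Clec4e* at HS14 did not pass it. DESeq2, with its own filter, called 6 members at HS14 and all 10 at HS21, where over all genes it called 500 of 15705 and 3054 of 17030 raised. In a bulk tissue, more cells of a type and more RNA per cell cannot be told apart. Without a model, every HS library lay above every LS library for 5 of 10 members at HS14 (3.06% of the 14181 genes that passed the filter) and for 8 of 10 at HS21 (12.6% of 14299). Those shares do not include the members that failed the filter, *S100a8* and, at HS14, *Clec4e*. The members let in only through their HS libraries are counted here too, except *Trem2* at HS14. These counts are therefore no support by themselves either. The 5 members at HS14 were *S100a8*, *S100a9*, *Clec4e*, *Tlr2* and *Tyrobp*. At HS21 the exceptions were *Tlr4* and *Cd14*. Each such separation has a two-sided exact permutation *P* of 0.00794, which is the smallest that 5 against 5 libraries can give.

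Lists of related genes and of cell markers are described below by counts, which stand against these shares of all genes tested. At HS14 the share raised was 1.14% in Cx and 0.00694% in OM, and the share lowered 1.18% and 0%. At HS21 the share raised was 18.9% in Cx and 0.639% in OM, and the share lowered 20.5% and 0.131%. An unadjusted *P* under 0.05, in either direction, was found for 17.4% of genes in Cx at HS14 and 48.1% at HS21, and for 5.73% in OM at HS14 and 11.2% at HS21. From HS14 to HS21 in Cx 6.5% were raised and 9.69% lowered. These shares moved when 1 library was left out. The genes raised against LS then numbered 42 to 274 in Cx at HS14 (162 with all 10), 2389 to 2749 at HS21 (2702), 0 to 4 in OM at HS14 (1) and 9 to 159 at HS21 (93), and from HS14 to HS21 in Cx 337 to 1476 (935).

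**Figure D1:**
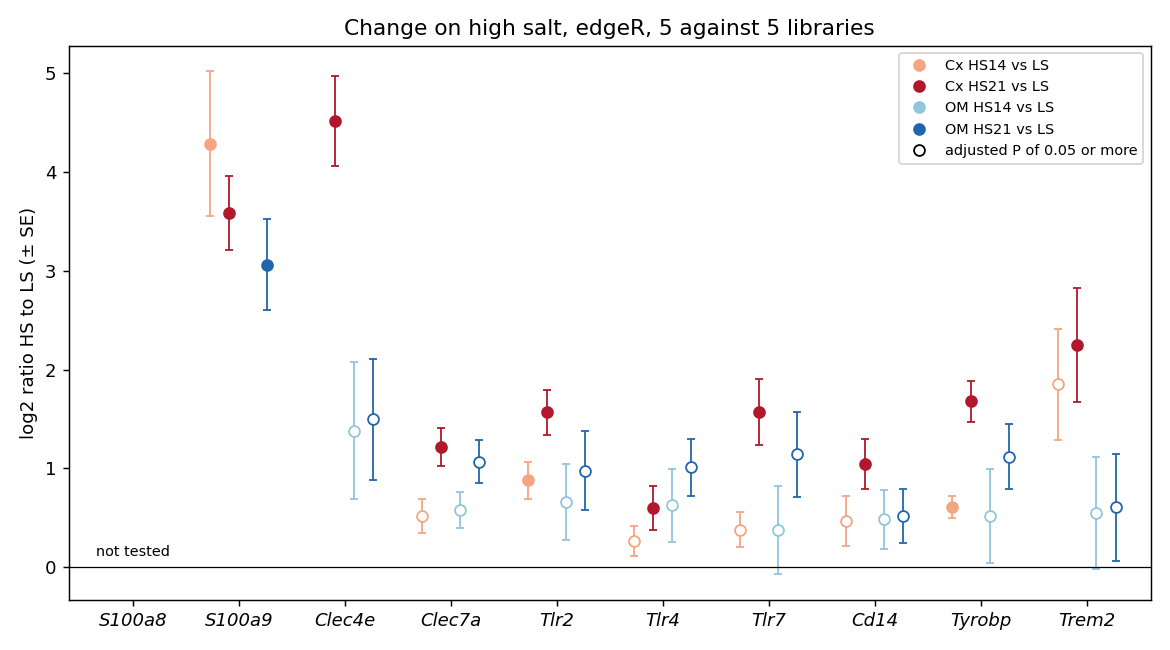
Change of each member on the HS diet. Points are log2 ratios of HS to LS and bars are ± SE from edgeR, with 5 against 5 libraries for each of the 4 comparisons, and open points have an adjusted *P* of 0.05 or more. *S100a9* and *Clec4e* in Cx at HS21 stand at 3.58 and 4.51, above the other 7 members tested there (0.60 to 2.25).

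*S100a8* and *S100a9* encode the subunits of calprotectin, which neutrophils and monocytes hold in their cytosol and release as an alarmin that TLR4 can bind. In Cx LS, *S100a8* was at 0.229, 0.0776, 0.152, 0 and 0.0641 CPM in replicates 1 to 5. At HS14 it was at 2.46, 0.658, 2.99, 9.33 and 0.515 CPM in replicates 6 to 10, and at HS21 at 1.34, 1.60, 0.412, 1.12 and 2.31 CPM in replicates 11 to 15. On LS *S100a8* was thus at or near 0 in all 5 libraries, and each HS library was above them. The 0 of LS replicate 4 allows up to 0.219 CPM (3 reads), which covers counting error only. At HS14 the group was split, with replicate 9 far above replicates 7 and 10, while the HS21 libraries lay closer together. Pooled over libraries there were 288 reads at HS14 against 7 on LS, a ratio of 35.2 (exact 95% counting interval 16.9 to 88.4), and 102 at HS21, a ratio of 13.3 (6.22 to 33.9). Replicate 9 gave 187 of the reads at HS14, and without it the ratio was 16.5 (7.71 to 42.0). These intervals leave out the differences between rats. *S100a8* was not tested in the filtered fit. With no filter its log2 ratio was 4.86 at HS14 (adjusted *P* = 0.0178) and 3.60 at HS21 (adjusted *P* = 0.000703).

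*S100a9* followed the same libraries. It was at 0.153, 0.233, 0.305, 0.510 and 0.192 CPM in Cx LS, at 4.99, 1.68, 6.34, 14.0 and 1.03 CPM at HS14 and at 3.70, 2.87, 1.72, 4.47 and 4.56 CPM at HS21. Replicate 9 was again the highest and replicate 10 the lowest of HS14, but also replicate 10 was above every LS library. The mean was 3.46 ± 1.19 CPM (SD, n = 5) at HS21, with a smaller spread than at HS14. In both comparisons with LS *S100a9* passed the filter only through the HS libraries, with 5 over the level needed against 0 on LS. It had to differ, so its calls are no support. It rose by 4.28 (SE 0.73, adjusted *P* = 0.0153) at HS14 and by 3.58 (SE 0.37, adjusted *P* = 4.59e-05) at HS21, and both calls were kept in each of the 10 fits that left out a library. The ratio of *S100a9* at HS14 was 3.61 to 4.61 in those fits, lowest without replicate 9, and that of pooled reads fell from 22.3 (14.1 to 37.3) to 12.9 (8.04 to 21.8) without it. From HS14 to HS21 the log2 ratio was −1.24 (SE 0.70, adjusted *P* = 0.240) for *S100a8* and −0.70 (SE 0.58, adjusted *P* = 0.426) for *S100a9*, so neither passed the test. Without HS14 replicate 9 these ratios were −0.30 for *S100a8* and −0.03 for *S100a9*, so the higher HS14 mean rested largely on this rat.

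In the OM the alarmins were again lowest on LS. *S100a8* was at 0.0613, 0, 0, 0 and 0.0679 CPM on LS, at 2.39, 1.21, 3.45, 5.98 and 0 CPM at HS14 and at 1.47, 0.491, 0.255, 1.09 and 0.818 CPM at HS21. *S100a9* was at 0.184, 0.252, 0.254, 0.315 and 0.136 CPM on LS, at 4.57, 2.24, 4.86, 7.83 and 0 CPM at HS14 and at 3.22, 1.75, 0.701, 2.79 and 1.45 CPM at HS21. For both genes all HS libraries except HS14 replicate 10 were above every LS library. The 0 reads of *S100a8* in LS replicates 2, 3 and 4 allow up to 0.252, 0.190 and 0.189 CPM. As in Cx, replicate 9 was the highest and replicate 10 the lowest at HS14, and replicate 13 was the lowest at HS21. The pooled reads of *S100a8* were 195 at HS14 against 2 on LS, a ratio of 108 (29.5 to 898), and 67 at HS21, a ratio of 31.5 (8.38 to 265). Those of *S100a9* were 293 at HS14 against 17, a ratio of 19.1 (11.7 to 33.2). At HS14 neither passed the low-count filter, and with no filter their adjusted *P* was 0.353 and 0.483. In the filtered fit without replicate 10 they passed through the 4 HS14 libraries alone, with 0 LS libraries over the level needed, so they had to differ. Their adjusted *P* of 0.0358 and 0.0303 there, at log2 ratios of 6.53 and 4.35, is therefore no support, nor is that of 0.0702 and 0.0345 without OM LS replicate 2 as well. In the 5 filtered fits without an LS library, which they entered in the same way, their adjusted *P* was 0.226 to 0.999. At HS21 *S100a9* rose by 3.06 (SE 0.46, adjusted *P* = 0.0280), having passed the filter only through the HS libraries. It therefore had to differ, and the call is no support. This call was lost in 6 of 10 fits that left out a library, with an adjusted *P* of 0.0645, 0.0917 and 0.0937 without OM LS replicates 1, 3 and 4 in turn and 0.0713, 0.0823 and 0.0541 without OM HS21 replicates 11, 14 and 15 in turn. It was also lost with all 15 OM libraries in 1 fit (adjusted *P* = 0.0636). With no filter *S100a8* was at 4.57 at HS21 (adjusted *P* = 0.0330), and with all 15 OM libraries in 1 fit its adjusted *P* was 0.0515.

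**Figure D2:**
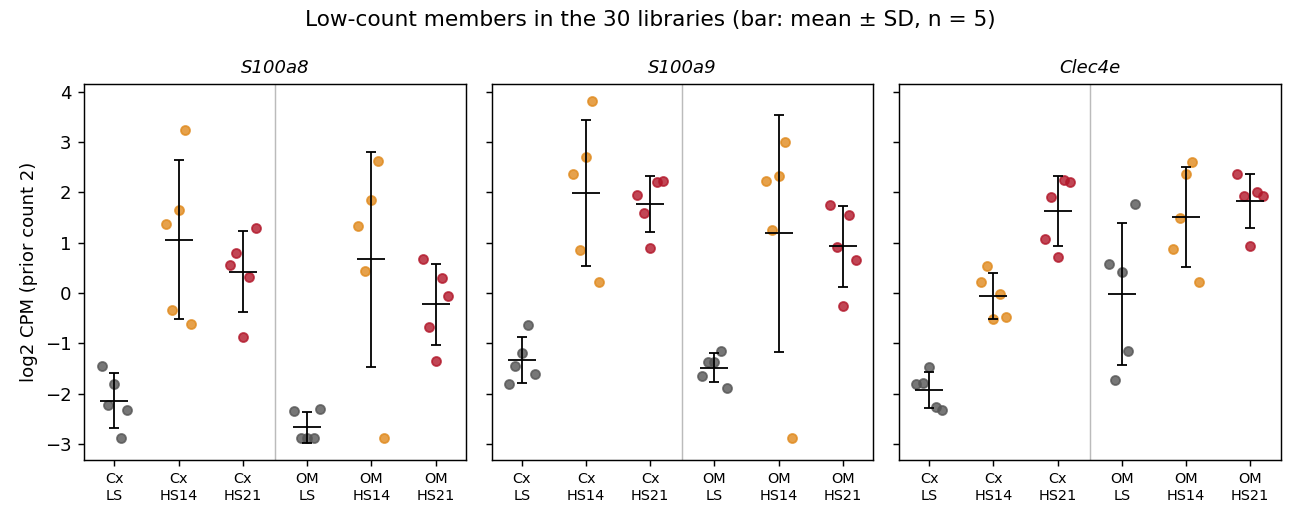
The 3 members with the fewest reads on LS. Each point is the log2 CPM (prior count 2) of a library, in replicate order within its tissue and diet, and the bars are the mean ± SD (n = 5). *S100a8* and *S100a9* spread most at HS14, where the lowest points are replicate 10, with 0 reads of both in OM.

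Neutrophils are the cells richest in both alarmins, so 14 neutrophil markers, all present in the table, were read beside them. Their summed level in Cx was 15.3, 20.1, 9.14, 27.4 and 12.8 CPM on LS, 27.5, 19.3, 24.0, 23.7 and 6.76 CPM at HS14 and 21.4, 33.4, 37.6, 28.6 and 23.6 CPM at HS21. The groups overlapped at HS14 and at HS21. Most of the sum was the matrix metalloproteinase *Mmp9* (14.0 ± 7.19 CPM, SD, n = 5) on LS, which had a log2 ratio of −0.36 (SE 0.41, adjusted *P* = 0.718) at HS14 and 0.40 (SE 0.38, adjusted *P* = 0.426) at HS21. Of the 2 markers tested against LS, only the granulocyte colony-stimulating factor receptor *Csf3r* was raised, by 1.64 (SE 0.30, adjusted *P* = 0.0211) and 1.93 (SE 0.25, adjusted *P* = 0.000160). The granule genes *Mpo* and *Elane* and the receptor *Cxcr1* had 0 reads in all Cx LS and HS14 libraries, and *Cd177* had 0 on LS. At HS21 *Elane*, *Cxcr1* and *Cd177* were at 0. In OM the summed level was 7.12, 11, 4.76, 5.30 and 5.56 CPM on LS, 10.8, 13.1, 11.5, 10.2 and 12.6 CPM at HS14 and 9.55, 12.1, 9.88, 13.1 and 10.1 CPM at HS21, with *Padi4* (2.62 ± 1.66 CPM, SD, n = 5) the most abundant on LS and *Csf3r* at HS14 and HS21. LS replicate 2 lay within the OM HS range, and the other 4 LS libraries were below every OM HS library. There *Mpo*, *Elane*, *Prtn3*, *Cxcr1*, *Camp* and *Cd177* had 0 reads on LS, *Mpo*, *Elane*, *Cxcr1* and *Cd177* at HS14, and *Cxcr1* and *Cd177* at HS21. None of the 2 tested at OM HS14 or the 3 at OM HS21 was called by edgeR, where 1 and 2 had an unadjusted *P* under 0.05. *Csf3r* was at 1.65 (SE 0.37, adjusted *P* = 0.397) at HS14 and 1.59 (SE 0.37, adjusted *P* = 0.0816) at HS21, while *Padi4* went the other way, at −1.17 (SE 0.64, adjusted *P* = 0.994) and −1.49 (SE 0.49, adjusted *P* = 0.231). The part of neutrophil number in the alarmin results was not tested.

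The alarmins were not the only S100 genes to change. Of the 16 listed genes, the S100 family with *Ager*, which encodes the receptor RAGE, 15 were in the table, and the 2 raised and 0 lowered of 10 tested in Cx at HS14 became 8 raised and 0 lowered of 10 tested at HS21, *S100a9* among them at both times. The intracellular S100 genes *S100a4* (log2 ratio 1.91, SE 0.24, adjusted *P* = 0.000145), *S100a6* (1.10, SE 0.12, adjusted *P* = 6.37e-05) and *S100a11* (0.89, SE 0.12, adjusted *P* = 0.000200) rose in Cx at HS21. *S100a4* was also raised at HS14, by 1.03 (SE 0.17, adjusted *P* = 0.0150). In the OM *S100a9* at HS21 was the only called gene of 10 tested, and 0 of 9 were called by edgeR at HS14, where 1 had an unadjusted *P* under 0.05.

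*Clec4e* encodes Mincle, a C-type lectin receptor of macrophages for fungal and mycobacterial glycolipids and for a protein of dying cells. It was at 0.153, 0.155, 0.228, 0.0729 and 0.0641 CPM in Cx LS, at 1.03, 1.32, 0.560, 0.848 and 0.580 CPM at HS14 and at 1.98, 3.61, 1.51, 4.60 and 4.49 CPM at HS21. The groups formed 3 separate steps, since each HS14 library was above every LS library and each HS21 library above every HS14 library. At HS14 68 reads against 9 on LS gave a ratio of 6.47 (3.21 to 14.7). It did not pass the filter there, and with no filter its log2 ratio was 2.62 (adjusted *P* = 0.0143). The rise at HS21, 4.51 (SE 0.46, adjusted *P* = 4.02e-05), rests on a gene with 9 reads in the 5 LS libraries. *Clec4e* passed the filter there only through HS21, with 5 libraries over the level needed against 0 on LS. It had to differ, so this call is no support. Between HS14 and HS21 it rose by 1.91 (SE 0.37, adjusted *P* = 0.0111) in all 10 fits that left out a library. In that comparison 5 libraries of HS21 were over the level needed against 3 of HS14. HS14 alone would not have passed the filter, which thus leaned to genes higher at HS21, so the call is no support.

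In the OM *Clec4e* was not low on LS in every rat. It was at 1.35, 0.168, 1.20, 0.315 and 3.26 CPM on LS, at 1.70, 2.66, 4.99, 5.91 and 1.03 CPM at HS14 and at 5.04, 3.65, 1.78, 3.89 and 3.65 CPM at HS21. The LS libraries ranged widely, with replicate 5 above 3 of the HS14 libraries and 1 of the HS21 libraries, and replicate 2 lowest. The log2 ratio was 1.38 (SE 0.70, adjusted *P* = 0.962) at HS14 and 1.5 (SE 0.61, adjusted *P* = 0.375) at HS21, with 3 of 5 LS libraries over the filter's level. Leaving out a library gave OM *Clec4e* ratios of 1.05 to 2.07 at HS14 and 1.23 to 2.18 at HS21, each highest without LS replicate 5. The change in OM was set against that in Cx by the interaction of tissue and diet. At HS21 this was −3.03 (SE 0.86, adjusted *P* = 0.107) for *Clec4e*, with an unadjusted *P* of 0.00230, so the difference did not pass the test. Without OM LS replicate 2 it passed, at −3.28 (adjusted *P* = 0.0164), and so it did with DESeq2 (adjusted *P* = 0.0227). In the other 19 fits that left out a library it did not, with an adjusted *P* of 0.0765 to 0.185 for *Clec4e*, and without OM LS replicate 5 its ratio was −2.33.

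*Clec7a* encodes dectin-1, the receptor of macrophages and dendritic cells for fungal beta-glucans. In Cx it was at 8.62, 8.22, 10.5, 8.60 and 5.45 CPM on LS, at 11.8, 15.2, 9.95, 12.2 and 10.8 CPM at HS14 and at 22.4, 19.0, 12.1, 20.6 and 23.2 CPM at HS21. All HS21 libraries were above every LS library, although HS21 replicate 13 lay among the HS14 libraries, and HS14 replicate 8 lay within the LS range. The log2 ratio was 0.52 (SE 0.17, adjusted *P* = 0.132) at HS14, which was not called, and the gene rose by 1.22 (SE 0.20, adjusted *P* = 0.000625) at HS21. From HS14 to HS21 it rose by 0.70 (SE 0.17, adjusted *P* = 0.0209), a call lost in 3 of 10 fits, with an adjusted *P* of 0.0610 and 0.0542 without Cx HS14 replicates 8 and 9 in turn and 0.0506 without Cx HS21 replicate 15. In the OM it was at 7.24, 4.87, 7.04, 4.79 and 5.97 CPM on LS, at 7.70, 11.1, 9.18, 9.32 and 7.57 CPM at HS14 and at 16.2, 7.72, 11.5, 15.6 and 12.8 CPM at HS21. Every HS library was above every LS library here too (exact permutation *P* = 0.00794 at both times), by a narrow gap at HS14. edgeR called neither the log2 ratio of 0.58 (SE 0.19, adjusted *P* = 0.597) at HS14 nor that of 1.07 (SE 0.22, adjusted *P* = 0.0579) at HS21. The HS21 ratio was called without OM HS21 replicate 12 (adjusted *P* = 0.0439), with all 15 OM libraries in 1 fit (0.0212) and by DESeq2 (0.000485).

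Other C-type lectin genes changed as well. Of 19 listed lectin receptors and signaling genes 17 were in the table, with 2 raised and 0 lowered of 15 tested in Cx at HS14 and 12 raised and 0 lowered of 16 tested at HS21. Between HS14 and HS21 there were 5 raised and 0 lowered of 17 tested. The members *Clec4e* and *Clec7a* are on this list. Both are counted among those raised at HS21 and between HS14 and HS21, where the calls of *Clec4e* are no support. The macrophage lectin *Clec4a3* rose at both times, by 0.88 (SE 0.19, adjusted *P* = 0.0374) and 2.16 (SE 0.34, adjusted *P* = 0.000527). *Clec12a*, an inhibitory receptor of myeloid cells, was at 0.79 (SE 0.22, adjusted *P* = 0.0817) at HS14 and rose by 1.81 (SE 0.31, adjusted *P* = 0.000913) at HS21. *Plcg2*, the phospholipase that acts after SYK, rose by 0.79 (SE 0.10, adjusted *P* = 0.000164) at HS21. In the OM *Clec12a* was the only gene of 16 tested that was raised at HS21, by 1.69 (SE 0.29, adjusted *P* = 0.0348). At OM HS14 0 of 16 were called by edgeR, and 4 had an unadjusted *P* under 0.05.

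*Tlr2* encodes the Toll-like receptor for bacterial lipoproteins. In Cx it was at 4.73, 3.96, 3.88, 3.65 and 3.27 CPM on LS, at 6.84, 10.3, 7.34, 6.74 and 5.15 CPM at HS14 and at 11.7, 15.5, 5.70, 12.3 and 13.2 CPM at HS21. The LS libraries were below all 10 HS libraries, and 4 of the 5 HS21 libraries were above every HS14 library, with replicate 13 as the exception. *Tlr2* rose by 0.88 (SE 0.18, adjusted *P* = 0.0353) at HS14 and by 1.57 (SE 0.23, adjusted *P* = 0.000381) at HS21. The call at HS14 was lost in 7 of 10 fits that left out a library, with an adjusted *P* of 0.0734, 0.0734, 0.0975 and 0.0787 without Cx LS replicates 2, 3, 4 and 5 in turn and 0.0549, 0.0751 and 0.0651 without Cx HS14 replicates 6, 8 and 9 in turn, and with all 15 Cx libraries in 1 fit (0.0690). The call at HS21 was kept in all 10. From HS14 to HS21 the log2 ratio of 0.69 (SE 0.25, adjusted *P* = 0.0762) was not called, but it was called without HS21 replicate 13 (adjusted *P* = 0.0107), by DESeq2 (0.0362), with total counts (0.0409) and with all 15 Cx libraries in 1 fit (0.0346).

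*Tlr4* encodes the receptor for bacterial lipopolysaccharide, and *Cd14* the co-receptor that hands lipopolysaccharide to it. *Tlr4* had the smallest log2 ratio of the tested members in Cx at both times. It was at 5.49, 4.50, 6.40, 4.37 and 6.22 CPM on LS, at 6.84, 6.21, 7.03, 7.33 and 5.48 CPM at HS14 and at 9.19, 6.54, 4.74, 10.7 and 10.3 CPM at HS21. The groups overlapped, and HS21 replicate 13 lay within the LS range. The log2 ratio was 0.27 (SE 0.15, adjusted *P* = 0.390) at HS14. At HS21 it rose by 0.60 (SE 0.22, adjusted *P* = 0.0497), a call at the edge of the threshold that was lost in 8 of 10 fits, with an adjusted *P* of 0.0827, 0.106, 0.0531, 0.110 and 0.0614 without Cx LS replicates 1, 2, 3, 4 and 5 in turn and 0.0909, 0.115 and 0.106 without Cx HS21 replicates 11, 14 and 15 in turn. With no low-count filter the adjusted *P* was 0.0650. *Cd14* was at 2.52, 4.19, 4.80, 3.86 and 6.09 CPM on LS, at 6.84, 5.41, 8.65, 4.04 and 5.22 CPM at HS14 and at 8.68, 8.35, 5.49, 9.59 and 12.9 CPM at HS21. It too overlapped, since HS21 replicate 13 was below LS replicate 5, and the other 4 HS21 libraries were above all of LS. Its log2 ratio was 0.47 (SE 0.25, adjusted *P* = 0.372) at HS14, and it rose by 1.05 (SE 0.25, adjusted *P* = 0.00663) at HS21 in every fit that left out a library (adjusted *P* up to 0.0187).

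*Tlr7* encodes the endosomal receptor for single-stranded RNA, made by macrophages, B cells and plasmacytoid dendritic cells. In Cx it was at 4.81, 4.19, 3.27, 4.67 and 4.68 CPM on LS, at 6.36, 6.06, 6.59, 5.89 and 3.67 CPM at HS14 and at 10.7, 8.61, 6.04, 14.4 and 25.3 CPM at HS21. HS14 replicate 10 fell within LS and the other 4 of HS14 were above it, while at HS21 all 5 were above LS and replicate 15 stood far above the rest. The log2 ratio was 0.38 (SE 0.18, adjusted *P* = 0.292) at HS14, and *Tlr7* rose by 1.57 (SE 0.33, adjusted *P* = 0.00314) at HS21, a call kept in all 10 fits. The rise from HS14 to HS21 was 1.19 (SE 0.34, adjusted *P* = 0.0355). It was lost in 7 of 10 fits, with an adjusted *P* of 0.0610, 0.0714, 0.0695, 0.0785 and 0.0518 without Cx HS14 replicates 6, 7, 8, 9 and 10 in turn and 0.0733 and 0.0656 without Cx HS21 replicates 14 and 15 in turn. Without replicate 15 the log2 ratio itself was 0.80.

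In the OM edgeR called none of these 4 members at either time. *Tlr2* was at 10, 1.85, 8.75, 5.17 and 9.70 CPM on LS and at 17.2, 17.1, 8.22, 16.5 and 11.7 CPM at HS21, and *Tlr7* at 7.73, 1.18, 7.61, 6.75 and 10.8 CPM and 18.6, 11.6, 10.6, 15.5 and 20.2 CPM. For both genes 4 of the 5 HS21 libraries were above every LS library, and LS replicate 2 was the lowest of all. The log2 ratios at HS21 were 0.98 (SE 0.40, adjusted *P* = 0.375) for *Tlr2* and 1.14 (SE 0.43, adjusted *P* = 0.318) for *Tlr7*. *Tlr4* ranged over 2.10 to 6.04 CPM on LS, 3.69 to 11.7 CPM at HS14 and 4.97 to 11.4 CPM at HS21. The HS14 maximum of *Tlr4* came from replicate 10, the library of low total, whose next neighbour was at 5.98 CPM. Its log2 ratio at HS21 was 1.01 (SE 0.29, adjusted *P* = 0.158), which DESeq2 called (adjusted *P* = 0.0252). *Cd14* ranged over 3.66 to 8.82 CPM on LS, 5.33 to 11.8 CPM at HS14 and 5.99 to 12.1 CPM at HS21, with overlapping groups and a log2 ratio of 0.52 (SE 0.28, adjusted *P* = 0.557) at HS21. At HS14 the log2 ratios of the 4 genes lay between 0.38 (*Tlr7*) and 0.66 (*Tlr2*), each with an adjusted *P* of 0.994. Leaving out a library gave 0.42 to 0.82 for *Tlr2*, 0.27 to 0.80 for *Tlr4*, 0.11 to 0.59 for *Tlr7* and 0.32 to 0.67 for *Cd14* at HS14, and 0.74 to 1.13, 0.85 to 1.18, 0.88 to 1.35 and 0.35 to 0.70 in the same order at HS21. Without OM LS replicate 2 and OM HS14 replicate 10, *Tlr4* was at 0.11 at HS14.

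**Figure D3:**
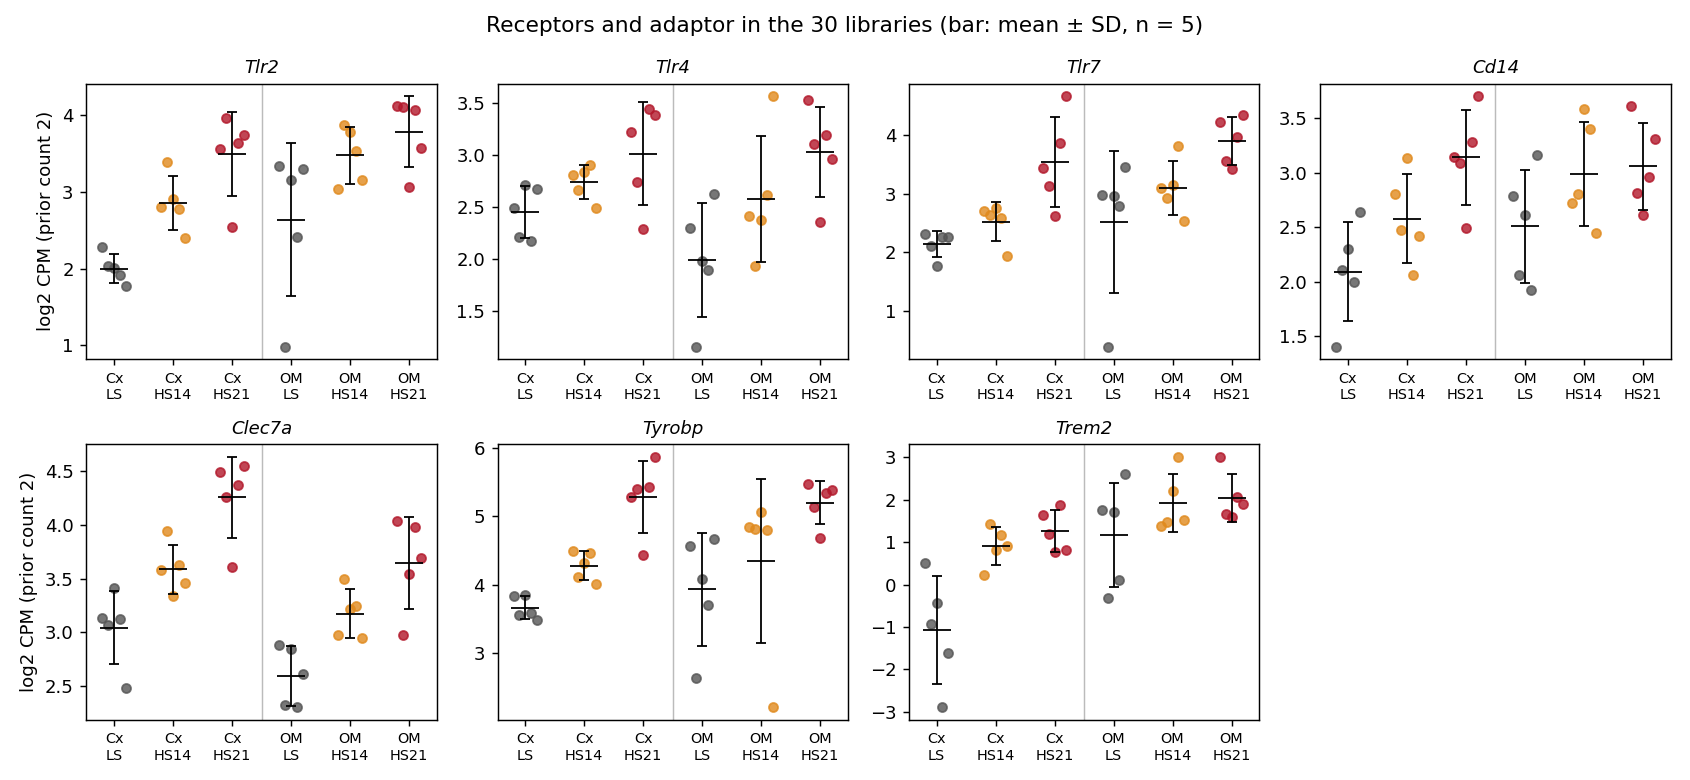
The other 7 members in the 30 libraries. Each point is the log2 CPM (prior count 2) of a library in replicate order and the bars are the mean ± SD (n = 5), with a separate scale for each gene. In Cx HS21 the lowest point of each gene is replicate 13, with replicate 15 close to it for *Trem2*.

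Of 20 listed Toll-like receptors and partners 18 were in the table, and in Cx the 1 raised and 0 lowered of 17 tested at HS14 (1.14% of all genes were raised) became 13 raised and 1 lowered of 18 tested at HS21 (18.9% raised and 20.5% lowered). Their median log2 ratio was 0.36 and 1.03. The members *Tlr2*, *Tlr4*, *Tlr7* and *Cd14* are on this list and in these values. *Tlr2* was the gene raised at HS14, and each of these members was raised at HS21. Among those raised at HS21 were *Cd180* (1.13, SE 0.18, adjusted *P* = 0.000636), a TLR-like receptor of B cells and macrophages, and *Unc93b1* (1.22, SE 0.25, adjusted *P* = 0.00262), which carries TLR7 to the endosome. The gene lowered was *Tlr12*, a receptor for the protein profilin of parasites, which fell from 273 ± 22.8 CPM (SD, n = 5) to 142 ± 20.7 CPM (SD, n = 5). Its log2 ratio was −0.96 (SE 0.10, adjusted *P* = 5.05e-05). In the OM 0 of 17 were called by edgeR at HS14 and 0 of 17 at HS21, where 4 and 12 had an unadjusted *P* under 0.05 (5.73% and 11.2% of all genes).

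The signaling genes after the Toll-like receptors changed in both directions. Of 23 listed, 22 were in the table and tested. Cx had 1 raised and 0 lowered of 22 tested at HS14 and 6 raised and 6 lowered of 22 tested at HS21, with medians of 0.00 and 0.11. The counts at HS21 are close to the shares of all genes (18.9% raised and 20.5% lowered). *Nfkb2*, a subunit of NF-kappaB, was the gene raised at HS14, by 0.26 (SE 0.06, adjusted *P* = 0.0412). At HS21 the adaptor *Ticam2* rose by 1.16 (SE 0.23, adjusted *P* = 0.00197). The kinase genes *Chuk* (log2 ratio −0.56, SE 0.06, adjusted *P* = 4.64e-05) and *Irak2* (−0.45, SE 0.08, adjusted *P* = 0.00148) fell. In the OM 1 of 22 was raised at HS21, the transcription factor *Irf5*, by 1.11 (SE 0.20, adjusted *P* = 0.0392), and 0 were called by edgeR at HS14, where 3 had an unadjusted *P* under 0.05.

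*Tyrobp* encodes the ITAM adaptor (DAP12) that TREM2 and other myeloid and natural killer cell receptors need to signal. In Cx it was at 14.1, 11.6, 14.2, 11.9 and 11 CPM on LS, at 22.4, 17.1, 19.7, 21.9 and 15.9 CPM at HS14 and at 38.9, 41.8, 21.5, 42.8 and 58.2 CPM at HS21. LS, HS14 and HS21 formed rising steps, broken only by HS21 replicate 13, which lay within HS14. *Tyrobp* rose by 0.61 (SE 0.11, adjusted *P* = 0.0220) at HS14, by 1.68 (SE 0.21, adjusted *P* = 0.000145) at HS21 and by 1.07 (SE 0.21, adjusted *P* = 0.0113) from HS14 to HS21. The call at HS14 was lost in 5 of 10 fits, with an adjusted *P* of 0.0598, 0.0723 and 0.0546 without Cx LS replicates 2, 4 and 5 in turn and 0.0524 and 0.0634 without Cx HS14 replicates 8 and 9 in turn, and with all 15 Cx libraries in 1 fit (0.131). The other calls were kept in all 10 fits. In the OM it was at 23.4, 6.04, 16.9, 12.9 and 25.3 CPM on LS, at 28.5, 28.0, 33.1, 27.7 and 4.47 CPM at HS14 and at 44.1, 34.8, 25.4, 40.2 and 41.5 CPM at HS21. HS14 replicate 10 was the lowest of all OM libraries and the other 4 of that group lay close together above LS. At HS21 all 5 were above LS, replicate 13 by a small margin (exact permutation *P* = 0.00794). The log2 ratio was 0.52 (SE 0.47, adjusted *P* = 0.994) at HS14 and 1.12 (SE 0.33, adjusted *P* = 0.163) at HS21. DESeq2 called the latter (adjusted *P* = 0.0328). Leaving out a library gave OM *Tyrobp* ratios of 0.30 to 0.77 and 0.91 to 1.29.

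*Trem2* encodes a lipid-sensing receptor of macrophages and microglia. In Cx it was at 1.30, 0.388, 0.609, 0 and 0.192 CPM on LS, at 1.03, 2.56, 1.62, 2.10 and 1.74 CPM at HS14 and at 3.0, 2.14, 1.58, 3.55 and 1.63 CPM at HS21. LS replicate 1 was above HS14 replicate 6 and below all HS21 libraries, and LS replicate 4 had 0 reads, which allows up to 0.219 CPM. The log2 ratio was 1.85 (SE 0.56, adjusted *P* = 0.107) at HS14, which DESeq2 called (adjusted *P* = 0.0259). At HS21 *Trem2* rose by 2.25 (SE 0.57, adjusted *P* = 0.00906), as a gene that passed the filter through its HS libraries, with 1 of 5 LS libraries over the level needed. It had to differ for that reason, so the call is no support. Leaving out a library gave *Trem2* ratios of 1.53 to 2.58 at HS14 and 1.93 to 2.97 at HS21, each lowest without LS replicate 4 and highest without LS replicate 1. In the OM it was at 3.25, 0.672, 3.11, 0.946 and 5.90 CPM on LS, at 2.45, 2.66, 4.43, 7.90 and 2.75 CPM at HS14 and at 7.85, 3.02, 2.87, 4.01 and 3.59 CPM at HS21, with broad overlap. Its log2 ratios there were 0.55 (SE 0.57, adjusted *P* = 0.994) and 0.61 (SE 0.54, adjusted *P* = 0.787), and leaving out a library moved them over 0.15 to 1.01 at HS14 and 0.26 to 1.06 at HS21.

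Of the 12 listed TREM and ITAM adaptor genes, all in the table, Cx had 1 raised and 0 lowered of 8 tested at HS14 (*Tyrobp*) and 6 raised and 0 lowered of 9 tested at HS21. The members *Tyrobp* and *Trem2* are among those raised at HS21, where the call of *Trem2* is no support. The other ITAM adaptor gene *Fcer1g* rose by 1.58 (SE 0.28, adjusted *P* = 0.00102) at HS21, the adaptor gene *Hcst* (DAP10) by 2.53 (SE 0.33, adjusted *P* = 0.000167), and *Csf1r*, the macrophage growth factor receptor, by 1.17 (SE 0.14, adjusted *P* = 0.000129). In the OM 0 of 11 were called by edgeR at HS14 and 0 of 11 at HS21, with 3 and 7 at an unadjusted *P* under 0.05.

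Markers of macrophages, which make most of the receptors described here, moved with them. The 17 macrophage markers summed in Cx to 362, 302, 425, 373 and 371 CPM on LS, 679.6, 576, 805, 833 and 467 CPM at HS14 and 1389, 837, 558, 2044 and 3478 CPM at HS21. In OM they summed to 631, 185, 609, 439.8 and 919 CPM on LS, 911, 798, 1328, 1123 and 432 CPM at HS14 and 1909, 921, 913, 1775 and 2247 CPM at HS21. In Cx each HS library was above LS, HS21 replicate 15 was the highest and replicate 13 the lowest of its group, as for most members, and in OM the LS minimum was replicate 2, and HS14 replicates 6, 7 and 10 and HS21 replicate 13 lay within LS. The most abundant in every group was the lysozyme gene *Lyz2*, at 166 ± 30.1 CPM (SD, n = 5) in Cx LS and 1106 ± 923 CPM (SD, n = 5) in Cx HS21. Cx had 3 raised and 0 lowered of 14 tested at HS14 (median log2 ratio 0.61) and 13 raised and 0 lowered of 14 tested at HS21 (1.56), among them *Itgam* at 1.5 (SE 0.26, adjusted *P* = 0.0153) and 2.27 (SE 0.35, adjusted *P* = 0.000483). OM had 0 of 14 called by edgeR at HS14 (6 at an unadjusted *P* under 0.05) and 2 raised and 0 lowered of 14 tested at HS21, *Itgam* among them. At HS21 13 had an unadjusted *P* under 0.05, and the median log2 ratio of the 14 was 1.23. *Vsig4* had 0 reads at OM HS14. Their part in the change of the members was not tested.

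The members were therefore also read relative to the macrophage markers, as log2 CPM minus the mean log2 CPM of those 17 genes in the same library, without a test. In Cx at HS14, 3 of 10 members lay above LS in every HS library on this measure (0.0776% of the 14181 genes that passed the filter), *S100a8*, *S100a9* and *Clec4e*. *S100a8* and *Clec4e* did not pass it, so they are not among the genes of that share. *S100a9* was at −2.61 to 0.28 against −4.53 to −3.15 on LS. At HS21, 4 of 10 lay above (0.315% of 14299 genes, without *S100a8*), the same 3 and *Tyrobp*. *S100a9* at both times and *Clec4e* at HS21 had passed the filter only through their HS libraries. Their place above LS is therefore no support. *Clec4e* was at −2.97 to −1.60 against −4.95 to −4.23 on LS, and *Tyrobp* at 1.24 to 1.89 against 0.86 to 1.10 on LS. *Tyrobp* overlapped LS when 9 general leukocyte markers or a prior count of 0.5 were used instead. *Tlr4* lay below LS at both times, at −0.70 to −0.34 against −0.34 to 0.05 on LS at HS14 and −1.23 to −0.73 against −0.34 to 0.05 on LS at HS21, as did 32.7% and 66% of those genes. At HS14 *Tlr4* overlapped LS with either alternative, and at HS21 it stayed below with both. *Clec7a*, *Tlr2*, *Tlr7*, *Cd14* and *Trem2* overlapped LS at both times in Cx. In the OM 0 members lay above LS at HS14 (0.118% of 14417 genes that passed the filter) and 0 at HS21 (0.247% of 14555). There *Cd14* at HS21 was the only member below LS, at −0.92 to −0.55 against −0.54 to 0.47 on LS, where 36.9% of those genes were below, and it overlapped LS with the leukocyte markers. With a prior count of 0.5, *S100a8* was above LS at OM HS21.

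The sum of other leukocyte markers was also higher. The 9 general leukocyte markers summed in Cx to 192, 148, 162, 147 and 135 CPM on LS, 272, 269, 236, 277 and 203 CPM at HS14 and 439, 411, 255, 581 and 730.3 CPM at HS21. In OM the sums were 266, 127, 213, 165 and 262 CPM, 321, 357, 343, 308 and 293 CPM and 523, 428, 369.6, 525 and 536 CPM. Each HS library was above every LS library of its tissue in this sum, and *Lcp1* was the most abundant gene throughout. Cx had 4 raised and 0 lowered of 8 tested at HS14 and 8 raised and 0 lowered of 8 tested at HS21, and OM 4 raised and 0 lowered of 8 tested at HS21, where 8 had an unadjusted *P* under 0.05. At OM HS14 0 of 8 were called by edgeR, and 5 had an unadjusted *P* under 0.05.

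T cells are not a main source of these receptors. Each HS library was still above every LS library of its tissue in the sum of 9 T cell markers. They summed in Cx to 36.6, 34.1, 38.0, 31.1 and 24.8 CPM on LS, 54.8, 59.6, 51.2, 60.7 and 44.4 CPM at HS14 and 102, 77.6, 54.4, 145 and 184 CPM at HS21, and in OM to 46.1, 14.8, 42.5, 27.1 and 58.0 CPM, 67.1, 62.0, 78.2, 70.4 and 62.6 CPM and 109.7, 78.1, 66.6, 127 and 138 CPM. Again HS21 replicate 15 was highest and replicate 13 lowest in both tissues, and *Cd4*, which rat macrophages make too, was the most abundant. Cx had 4 raised and 0 lowered of 7 tested at HS14 and 7 raised and 0 lowered of 7 tested at HS21, and OM 1 raised and 0 lowered of 8 tested at HS21, where 8 had an unadjusted *P* under 0.05. At OM HS14 0 of 7 were called by edgeR, and 4 had an unadjusted *P* under 0.05. The 6 B cell markers summed to at most 4.27 CPM in any library. None of them could be tested in Cx, and 0 of 2 were called in OM at HS14 and HS21 (0 at an unadjusted *P* under 0.05). The part of lymphocytes in the results was not tested.

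Markers of other cells were read in the same way. The red cell markers found (4 of 6) summed to 38.0 to 121 CPM in Cx LS, 50.8 to 133 CPM at HS14 and 74.2 to 439 CPM at HS21, and to 66.9 to 174, 23.6 to 182 and 125 to 367 CPM in the OM, with *Hbb* the most abundant. Replicate 15 gave the maximum at HS21 in both tissues. Against LS 0 of 3 were called by edgeR at either time in either tissue, with 0 and 2 at an unadjusted *P* under 0.05 in Cx and 1 and 0 in OM. Of 5 cortical segment markers 0 were called by edgeR in Cx at HS14 (0 at an unadjusted *P* under 0.05), and 2 were raised and 2 lowered at HS21, among them *Slc34a1*, the most abundant, at −0.45 (SE 0.11, adjusted *P* = 0.00663). In OM 0 of 5 were called at both times, and 0 had an unadjusted *P* under 0.05. The thick ascending limb markers *Umod* and *Slc12a1* were raised in Cx at HS21, by 0.71 (SE 0.13, adjusted *P* = 0.00132) and 0.55 (SE 0.10, adjusted *P* = 0.00145), and not called in the other 3 comparisons with LS (0 at an unadjusted *P* under 0.05). Of 3 endothelial markers *Emcn* was raised in Cx at HS21, by 0.29 (SE 0.05, adjusted *P* = 0.00145), *Kdr* and *Cdh5* were not, and 0 of 3 were called in the other 3 comparisons, with 1 at an unadjusted *P* under 0.05 in Cx at HS14. Their summed level was 248 to 279.7 CPM in Cx LS and 240.0 to 296 CPM in Cx HS21. None of these lists was tested as a source of the members' change.

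The comparison of HS21 with HS14 asks whether the members went on changing in the third week. In Cx 4 of 10 tested members were raised (6.5% of all genes tested) and 0 lowered, namely *Clec4e*, *Clec7a*, *Tlr7* and *Tyrobp*, with a median log2 ratio of 0.63 over the 10 against 0.01 over all genes. The call of *Clec4e* is no support, since its HS14 libraries alone, with 3 over the level needed against 5 of HS21, would not have passed the filter. The alarmins had negative log2 ratios in both tissues, in the OM −1.68 (SE 0.74, adjusted *P* = 0.961) for *S100a8* and −1.0 (SE 0.70, adjusted *P* = 0.961) for *S100a9*. Without OM HS14 replicate 9 these were −1.14 for *S100a8* and −0.59 for *S100a9*. In the OM 0 of 10 were called (0% of all genes were raised) by edgeR, and 3 had an unadjusted *P* under 0.05 (3.77% of all genes, in either direction), *S100a8*, *Clec7a* (0.49, SE 0.21, adjusted *P* = 0.961) and *Tlr7* (0.77, SE 0.26, adjusted *P* = 0.961). DESeq2 also called 0.

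Against LS, the OM gave fewer calls than the Cx. At HS14, 0 of 8 tested members were called by edgeR (0.00694% of all genes tested were raised), 1 had an unadjusted *P* under 0.05 (*Clec7a*, 4.28% of all genes in that direction), and DESeq2 called 2 (*S100a8* and *S100a9*), with 90 of 15928 genes raised by it. The median log2 ratio was 0.57 against −0.02 over all genes. At HS21, 1 of 9 was raised (0.639%), *S100a9*, while 7, all of them higher, had an unadjusted *P* under 0.05 (6.95% of all genes in that direction) and DESeq2 called 5 (*S100a8*, *S100a9*, *Clec7a*, *Tlr4* and *Tyrobp*), with 555 of 18097 genes raised by it. The median was 1.07 against −0.03. These OM counts and medians are no support by themselves. At HS21 *S100a9* passed the filter only through its HS libraries, with 5 over the level needed against 0 on LS. At both times *Clec4e* had 5 HS libraries over that level against 3 on LS, and *Trem2* 5 against 4. In 1 of 10 members (*Clec7a*) at HS14 (1.05% of the 14417 genes that passed the filter) and in 4 of 10 at HS21 (2.64% of 14555) the HS libraries were all above LS. *S100a8* and, at HS14, *S100a9* are not in these shares. At HS21 *S100a9* is in them, but it passed the filter only through its HS libraries. The 4 were *S100a8*, *S100a9*, *Clec7a* and *Tyrobp*. A smaller number of calls is not a test of a smaller change, so the tissues were compared directly. In the tissue by diet interaction at HS14, edgeR called a smaller change in OM for 0 of 10 members (0% of all genes). There 0 had an unadjusted *P* under 0.05, and DESeq2 called 0. The median interaction of the members was −0.08 against −0.06 over all genes, where a negative value is a smaller change in OM. At HS21 edgeR also called 0 (0.217% of all genes), 1 had an unadjusted *P* under 0.05 (8.99% of all genes in that direction) and DESeq2 called 1, both times *Clec4e*. The median of the members was −0.53 against −0.06 over all genes, so the estimates leaned to smaller changes in OM that edgeR did not call. Over all genes, 68 had a positive and 33 a negative interaction at HS21, against 729 and 546 without OM LS replicate 2.

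On LS, few members differed between OM and Cx. In OM 1 of 7 tested was higher than in Cx (21.3% of all genes tested were higher), or 2 of 7 when scaled by total counts. Over all genes 3051 were higher and 2794 lower by TMM, against 5546 and 1842 by total counts. The member was *Trem2*, at 2.78 ± 2.11 CPM (SD, n = 5) against 0.497 ± 0.501 CPM (SD, n = 5). Its log2 ratio was 2.47 (SE 0.78, adjusted *P* = 0.0273), and the call was lost in 6 of 10 fits, with an adjusted *P* of 0.0648, 0.0546 and 0.0689 without Cx LS replicates 2, 3 and 5 in turn and 0.0536, 0.0518 and 0.0547 without OM LS replicates 1, 3 and 5 in turn. *Trem2* passed the filter mainly through OM, where 4 libraries were over the level needed against 1 of Cx. It had to differ for that reason, so the call is no support. The tissue comparison depended on OM LS replicate 2. Without it, *Tlr2* (adjusted *P* = 0.00134), *Tlr7* (0.00150) and *Tyrobp* (0.0185) were also higher in OM. *Clec7a* was the member nearest to being lower in OM, at −0.48 (SE 0.19, adjusted *P* = 0.0715), and it was called without Cx LS replicate 5 (adjusted *P* = 0.0187) and by DESeq2 (0.0495). *S100a8*, *S100a9* and *Clec4e* were too low to be tested here, but with no filter *Clec4e* was higher in OM by 3.17 (adjusted *P* = 0.00986).

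The genes whose levels ran most alike with each member were sought among 13845 genes over the 15 Cx libraries. Pearson's correlation of log2 CPM in Cx, then in the 15 OM libraries, is given as a description. The libraries of a tissue share their diet groups, and so any genes that change with diet are alike. For *S100a8* the nearest were *S100a9* (0.938 and 0.963), the metalloreductase gene *Steap4* (0.888 and 0.704) and *Csf3r* (0.885 and 0.643). For *S100a9* they were *S100a8*, *Csf3r* (0.934 and 0.535) and *Tmem255b* (0.934 and 0.0887). Those of *Clec4e* were *Spn* (0.978 and 0.770), which encodes the leukocyte sialoprotein CD43, *Itgb2* (0.977 and 0.593) and *Pik3r5* (0.977 and 0.800). *Clec7a* was nearest to *Tmem173* (0.966 and 0.473), which encodes STING, *Cnp* (0.965 and 0.687) and *Gngt2* (0.964 and 0.521).

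Among the Toll-like receptors, *Tlr2* was nearest to the kinase gene *Fgr* (0.974 and 0.755), *Il1rn* (0.961 and 0.855) and *Tnfrsf1b* (0.950 and 0.854). The nearest to *Tlr4* were *Nlrc4* (0.943 and 0.781), *Rftn1* (0.938 and 0.687) and *Arl11* (0.937 and 0.470). For *Tlr7* they were *Akna* (0.971 and 0.814), the class II invariant chain gene *Cd74* (0.968 and 0.845) and *Fyb* (0.965 and 0.738). *Cd14* had *RT1-DOa* (0.917 and 0.529), *Cnn2* (0.904 and 0.712) and *Rn60_10_0701.2* (0.888 and 0.540). *Tyrobp* had the closest partner of any member, the cathepsin gene *Ctsz* (0.989 and 0.931), and also *Coro1a* (0.982 and 0.857). *Trem2* was nearest to *Alox15b* (0.921 and 0.522), *Lbp* (0.889 and 0.151) and *Lcn2* (0.886 and 0.884).

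Because most members rose together in Cx, their promoters were searched for motifs of transcription factors of myeloid cells and inflammation. RefSeq promoters (build GRCr8, the 250 bases before the gene start) were found for 8 of the 10 members. *S100a8* and *Tyrobp* had no entry. Both strands were searched, and the motifs were counted without regard to overlaps. GAGGAAG (PU.1) was in 3 of 8, at −68 in *Tlr4*, at −140 and −105 in *Cd14* and at −30 in *Trem2*, and in 10.2% of 33469 promoters of that length. TTGCNNAA (C/EBP) was in 2 of 8, at −153 in *Clec4e* and −138 in *Tlr7*, and in 9.22% of promoters. GGGNTTTCC (NF-kB) was in 1 of 8, at −53 in *Tlr7*, and in 1.35%. TGANTCA (AP-1) was in 0 of 8 and in 6.34%. Positions count from the gene start to the first base of the match.

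The promoters of *S100a9* (chr2:178490623-178490872, minus strand), *Clec4e* (chr4:158298468-158298717, minus strand) and *Tlr7* (chrX:30644176-30644425, plus strand) are shown, the first pair for the tested members with the largest log2 ratios on HS and *Tlr7* as the promoter with 2 motifs. Each is written 5′ to 3′ on the strand of the gene, with motif matches in capitals, and that of *S100a9* holds no match.
S100a9: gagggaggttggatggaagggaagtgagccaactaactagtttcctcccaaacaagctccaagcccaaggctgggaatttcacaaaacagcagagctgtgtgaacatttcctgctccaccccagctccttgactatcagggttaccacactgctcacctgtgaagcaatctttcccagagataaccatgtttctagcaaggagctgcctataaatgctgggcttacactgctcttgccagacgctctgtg
Clec4e: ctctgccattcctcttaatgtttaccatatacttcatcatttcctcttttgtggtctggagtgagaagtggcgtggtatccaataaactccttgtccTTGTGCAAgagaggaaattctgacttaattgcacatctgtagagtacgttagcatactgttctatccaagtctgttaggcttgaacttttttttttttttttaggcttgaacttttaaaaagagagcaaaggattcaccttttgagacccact
Tlr7: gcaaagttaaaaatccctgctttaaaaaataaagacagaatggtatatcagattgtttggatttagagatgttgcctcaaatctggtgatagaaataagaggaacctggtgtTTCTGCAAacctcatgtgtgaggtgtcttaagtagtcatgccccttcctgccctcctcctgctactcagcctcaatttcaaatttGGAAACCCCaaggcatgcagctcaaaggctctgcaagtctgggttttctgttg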

How the data were processed

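Poly(A) RNA libraries without strand information from 30 samples, 5 per tissue and diet, were analysed. Groups were assigned from the labels. The authors aligned clean reads with HISAT2 2.0.5 to Rnor_6.0 and counted them per gene with featureCounts 1.5.0-p3, and the deposited counts are raw numbers without normalization. The authors also deposited FPKM (fpkm), fragments scaled by gene length and library size, whose library scale was 0.884 to 1.19 of the total counts, and a gene length in bases per the file headers. FPKM served only to order levels of different genes.

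Each comparison was fitted across all genes with edgeR 4.0.16 in R 4.3.3 (filterByExpr with a count minimum of 10, TMM, glmQLFit and glmQLFTest, Benjamini-Hochberg adjustment), without covariates. The interaction of tissue and diet used 20 libraries. CPM was TMM-scaled over the 30 libraries, with a prior count of 2 for log2 CPM. Single members were compared with LS by two-sided exact permutation (40 tests, unadjusted, smallest *P* 0.00794). Ratios of pooled reads have exact 95% intervals. Counting error and the spread between 5 rats limit the members with few reads. The code was tested on simulated data.

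Alternatives were DESeq2 1.42.0, its size factors in edgeR, total-count scaling, no filter, all 15 libraries of a tissue in 1 fit, leaving out each library, the replicate number as a block, and, for the measure relative to macrophage markers, general leukocyte markers or a prior count of 0.5. A fit without OM LS replicate 2 and OM HS14 replicate 10 was chosen after seeing the data.

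The members and the 14 lists (C-type lectin, TREM and ITAM, S100, Toll-like receptor and Toll-like receptor signaling genes, and markers of neutrophils, macrophages, T cells, B cells, leukocytes in general, red cells, cortical segments, thick ascending limb and endothelium) were chosen with earlier results of these data known. Of 158 listed symbols 150 were in the table, and the other 8, among them *Tlr1*, *Ly96*, *Ticam1*, *Clec6a*, *Cd209*, *S100a14* and *Hba-a3*, were not analysed here. All 10 members are named. Other genes named are up to 3 per list and comparison with the lowest adjusted *P* and at least 1 CPM, and up to 3 of those most correlated with each member, beside markers named for being at 0 or most abundant. Figures were drawn with matplotlib 3.10.9 in Python 3.11.15 (numpy 2.4.6, pandas 2.3.3, scipy 1.17.1).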

Additional observations from a re-analysis of the deposited data

Results flagged for a closer look

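Among 66 groups of 5 libraries checked for a library far from the rest, 4 held a library whose gap to its nearest neighbour was large against the range of the group, and chance alone gives about 1 in 20. In Cx HS21, *Tlr2* of replicate 13 was lowest, at 2.54 log2 CPM (5.70 CPM), with the others at 3.56 to 3.97. In Cx HS14, *Tlr7* of replicate 10 was lowest, at 1.93 log2 CPM (3.67 CPM), with the others at 2.59 to 2.75. In OM LS, *Tlr7* of replicate 2 was lowest, at 0.39 log2 CPM (1.18 CPM), with the others at 2.78 to 3.45. In OM HS14, *Tyrobp* of replicate 10 was lowest, at 2.20 log2 CPM (4.47 CPM), with the others at 4.80 to 5.06.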

How the results depend on the processing

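Of 81 tested changes of members, with 1432 values under the alternatives, 1318 values kept their direction and their side of the threshold, 46 lost the call, 18 gained it and 50 changed direction. Those 50 belong to 9 changes that were never called, and the cause was not tested. Leaving out each library in turn gave, in OM at HS21 against HS14, −0.077 to 0.44 for *Clec4e*, −0.14 to 0.19 for *Cd14* and −0.30 to 0.46 for *Trem2*. In the interaction at HS14 it gave −0.64 to 0.42 for *S100a9*, −0.071 to 0.15 for *Clec7a*, −0.0041 to 0.51 for *Tlr4*, −0.30 to 0.19 for *Tlr7*, −0.18 to 0.19 for *Cd14* and −0.32 to 0.15 for *Tyrobp*. Also in that interaction, *S100a9* was at 0.082, *Tlr4* at −0.17 and *Cd14* at 0.0031 without OM LS replicate 2 and OM HS14 replicate 10, *Tlr7* at 0.10 with the replicate block, and *Cd14* at 0.025 with DESeq2, 0.022 with its size factors and 0.011 with no filter. The number of members called moved by over 1.5 times as follows, and the cause was not tested. DESeq2 called 6 in Cx at HS14 (3 by edgeR), 2 in OM at HS14 (0), 5 in OM at HS21 (1), 3 between OM and Cx on LS (1) and 1 in the interaction at HS21 (0). With no filter the number was 5 in Cx at HS14, 2 in OM at HS21 and 2 between OM and Cx on LS, where total counts also gave 2. Without OM LS replicate 2 and OM HS14 replicate 10, OM at HS14 had 1. Leaving out each library in turn gave 1 to 3 in Cx at HS14 and 2 to 5 in Cx at HS21 against HS14 (4 with all libraries). It gave 0 to 2 in OM at HS14, 0 to 2 in OM at HS21 and 0 to 4 between OM and Cx on LS. In the interaction at HS21 it gave 0 to 1. The number in Cx at HS21 moved less than 1.5 times, over 8 to 10 (9 with all libraries). With all 15 Cx libraries in 1 fit, 3 were called at HS14, but they were *S100a8*, *S100a9* and *Clec4e*. Relative to macrophage markers, a prior count of 0.5 put 1 member above LS in OM at HS21 (0 with 2). Scaling by total counts moved the median log2 ratio of all genes by 0.13 in Cx at HS21, 0.11 at HS21 against HS14, 0.24 between OM and Cx and −0.10 in the interaction at HS21. The genes raised and lowered by it were 2084 and 644 in Cx at HS21 against HS14 (935 and 1395 with TMM), and 57 and 54 in the interaction at HS21 (68 and 33). In OM at HS21 against LS they were 35 and 9 (93 and 19 with TMM).

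Cx and OM share replicate numbers. Of 15 pairs with the same number, 12 correlated over 0.1 (range −0.08 to 0.51), and 25 of 30 libraries correlated best with their own number. Cx and OM were dissected from the kidneys of the same groups, but the sources do not say that equal numbers are 1 rat. The block was not used in the tests of the report. With the replicate number as a block, the members called were 1 between OM and Cx on LS, 0 in the interaction at HS14 and 0 at HS21, as without it. Over all genes the block gave 2442 higher and 2569 lower in OM (3051 and 2794 without it), and 60 and 34 in the interaction at HS21 (68 and 33).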

Other observations

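Some listed genes that are not members differed between the tissues. *Tlr12* was at 273 ± 22.8 CPM (SD, n = 5) in Cx LS and 4.90 ± 6.64 CPM (SD, n = 5) in OM LS, and was lower in OM at a log2 ratio of −5.83 (SE 0.81, adjusted *P* = 0.000309). *Irf5* was also lower in OM on LS (−1.43, SE 0.19, adjusted *P* = 0.000204). *Apoe*, from the TREM and ITAM list, was at 935 ± 89.0 CPM (SD, n = 5) in Cx LS and 108 ± 28.6 CPM (SD, n = 5) in OM LS, a difference of −3.12 (SE 0.19, adjusted *P* = 2.66e-06). From HS14 to HS21 *Ager* rose in Cx by 1.26 (SE 0.26, adjusted *P* = 0.0120).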
